A study of Mus musculus with 14 samples.

Results

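The Slc1 family of plasma membrane transporters was followed through RNA of mouse cerebellum by the rows of 6 genes, Slc1a1 to Slc1a6, out of 24100 genes in the count table. They were taken by Entrez gene number, whatever their level, and all 6 passed the filter on low counts. Counts were made for 14 libraries from cerebella of littermates with Astn2 intact (WT) or knocked out (KO) at postnatal day 21. All of these mice, WT included, carried the transgene Tg(Pcp2-Egfp-L10a), in which the Purkinje cell promoter Pcp2 drives an EGFP-tagged ribosomal protein. Translating ribosome affinity purification (TRAP) used antibodies against GFP to pull those ribosomes out of the homogenate with their bound RNA. Part of the homogenate was set aside as input, which the labels call whole cerebellum. There were 4 input WT libraries (1 female, 3 male), 3 input KO libraries (2 female, 1 male), 3 TRAP WT libraries (1 female, 2 male) and 4 TRAP KO libraries (2 female, 2 male).

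Slc1 transporters move amino acids across the plasma membrane together with sodium. Slc1a1 (EAAC1), Slc1a2 (GLT-1), Slc1a3 (GLAST) and Slc1a6 (EAAT4) take up glutamate and aspartate, and so end and limit the glutamate signal at excitatory synapses. In the cerebellum, GLAST sits on Bergmann glia, the astroglial cells that wrap Purkinje cell dendrites, with GLT-1 on astroglia as well. EAAT4 sits on Purkinje cell spines, and EAAC1 is a transporter of many neurons. Slc1a4 (ASCT1) and Slc1a5 (ASCT2) are close relatives in sequence that exchange neutral amino acids such as serine, alanine and glutamine, so the 6 genes are not all glutamate transporters.

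Library totals ran from 18.8 M to 54.2 M counts (M for 1000000). Astn2 was at 88.8 to 104 CPM (counts per 1000000, scaled by TMM factors) in input WT and 0.729 to 0.968 CPM in input KO, and at 117 to 146 CPM in TRAP WT and 1.06 to 2.11 CPM in TRAP KO. All 10 Purkinje markers rose in TRAP in both genotypes by edgeR's quasi-likelihood test, beside 37.0% of all genes in WT and 36.3% in KO. With library totals in place of TMM factors, 8 of the 10 passed as higher in each genotype. The summed level of all 10 went from 6403 to 6760 CPM in input WT to between 83010.0 and 95580.0 CPM in TRAP WT. All 10 granule, 7 interneuron and 9 oligodendrocyte markers fell in TRAP in both genotypes, beside 38.5% of all genes in WT and 39.6% in KO. No marker of any of 9 panels was at 0 in a whole TRAP group, and the part of RNA of other cells in the TRAP levels was not tested. TRAP WT replicate 3 stood apart from the other TRAP WT libraries: the chi-square statistic per degree of freedom was 159 and 267 against them, and at most 62.8 between any other pair of one group. The edgeR differences of the 6 genes that use it are therefore also given without it. In bulk libraries fewer cells of a type and less RNA per cell cannot be told apart.

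The 6 genes lie on 6 chromosomes (GRCm38, GENCODE M21). Slc1a6 (Entrez 20513) spans chr10:78780496-78814765 on the plus strand, and Slc1a3 (Entrez 20512) spans chr15:8634124-8710764 on the minus strand. Slc1a2 (Entrez 20511) spans chr2:102658659-102790784 on the plus strand. Slc1a1 (Entrez 20510) spans chr19:28835049-28913960 on the plus strand, where exons of the gene 4430402I18Rik overlap it on the opposite strand. Slc1a4 (Entrez 55963) spans chr11:20302180-20332713 on the minus strand, and Slc1a5 (Entrez 20514) spans chr7:16781340-16798274 on the plus strand.

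Slc1a6, the Purkinje cell form, was the only one of the 6 whose level rose in TRAP. In input WT the 4 libraries held 70.7, 85.0, 97.9 and 119.8 CPM, and in TRAP WT the 3 libraries held 525, 403 and 601 CPM. The 3 input KO libraries held 86.7, 85.0 and 80.6 CPM, and the 4 TRAP KO libraries 435, 585, 707 and 614 CPM. Every TRAP library lay far above every input library of its genotype, while WT and KO libraries overlapped within TRAP and within input. The ratio of group means was 5.46 in WT and 6.96 in KO. Slc1a6 rose by 2.48 ± 0.18 on the log2 scale in WT (SE; edgeR adjusted p = 3.57e-08) and by 2.75 ± 0.20 in KO (SE; edgeR adjusted p = 3.75e-08). Of 16042 genes tested it had the 738th highest log2 fold change in WT and the 392nd highest in KO. Without TRAP WT replicate 3 the difference in WT was 2.35 ± 0.20 (SE; edgeR adjusted p = 1.51e-07).

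**Figure D1:**
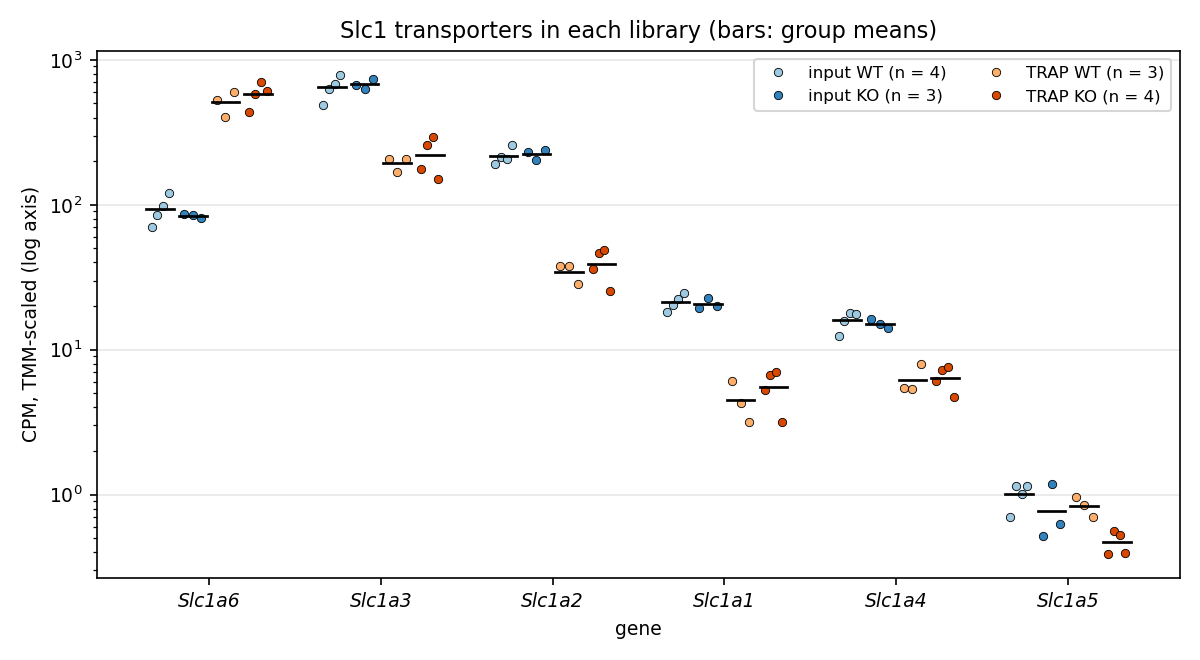
Levels of the 6 Slc1 genes in each library, in CPM scaled by TMM factors on a log axis, with 1 point per library and a short line at each group mean. For Slc1a6 every TRAP point (403 to 707 CPM) lies above every input point (70.7 to 119.8 CPM), for Slc1a3, Slc1a2, Slc1a1 and Slc1a4 every TRAP point lies below every input point, and Slc1a5 lies lowest in all groups, with means from 0.469 CPM in TRAP KO to 1.005 CPM in input WT.

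Slc1a3, the transporter of Bergmann glia, had the highest level of the family in input, in CPM and per length. It was measured at 485, 625, 687 and 789.6 CPM in the 4 input WT libraries and at 205, 167 and 207 CPM in the 3 TRAP WT libraries. In KO it was at 675, 628 and 735 CPM in input and at 177, 257, 295 and 151 CPM in TRAP. The TRAP libraries were all below the input libraries in both genotypes, yet none fell under 150.9 CPM. Slc1a3 fell by 1.72 ± 0.22 in WT (log2 scale, SE; edgeR adjusted p = 9.30e-06), or by 1.78 ± 0.28 without TRAP WT replicate 3 (edgeR adjusted p = 5.60e-05). In KO it fell by 1.65 ± 0.21 (edgeR adjusted p = 8.68e-06). Its mean in TRAP WT was 29.9% of that in input WT.

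Slc1a2, the other glial transporter, had the largest estimated drop of the 6 in both genotypes. Input WT libraries held 191, 214, 207 and 259.5 CPM, and TRAP WT libraries 38.1, 37.6 and 28.2 CPM. Input KO libraries held 231, 205 and 237 CPM, and TRAP KO libraries 36.2, 46.3, 48.4 and 25.5 CPM. The input and TRAP ranges were far apart, and TRAP WT replicate 3 and TRAP KO replicate 4 were the lowest of their groups. Slc1a2 fell by 2.66 ± 0.22 in WT (log2 scale, SE; edgeR adjusted p = 8.67e-08) and by 2.52 ± 0.20 in KO (SE; edgeR adjusted p = 7.62e-08). Without TRAP WT replicate 3 the drop in WT was −2.55 ± 0.25 (edgeR adjusted p = 6.41e-07). Exons of Slc1a2 overlap the annotated antisense gene Gm13872, not analysed here.

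The astroglial markers moved in the same direction as Slc1a3 and Slc1a2. Of the 10 astroglia and Bergmann glia markers, 9 fell in TRAP in both genotypes, beside 38.5% of all genes in WT and 39.6% in KO. Among them was the water channel gene Aqp4 (215.5 CPM in input WT and 38.4 CPM in TRAP WT). Hopx rose, from 166 to 1034 CPM, and in that respect did not follow its panel. With Hopx included, the summed panel in TRAP was 121.5% of its input mean in WT and 109.0% in KO. The sums that follow leave Hopx out and depend on that choice. The summed level of the 9 others was 841 to 977 CPM in input WT, 887 to 913 CPM in input KO, 186 to 337 CPM in TRAP WT and 211 to 386 CPM in TRAP KO. In TRAP WT that sum was 30.3% of its input mean, beside 29.9% for Slc1a3 and 15.9% for Slc1a2. In KO it was 34.2%, beside 32.4% for Slc1a3 and 17.4% for Slc1a2. The summed granule, interneuron, oligodendrocyte, microglia and endothelium markers lay between 23.4% (granule) and 37.3% (endothelium) in WT. In KO they lay between 25.1% (granule) and 47.2% (endothelium). These values did not set the glial sum apart from those panels. The glial sum was lowest in TRAP WT replicate 3 and TRAP KO replicate 4, where Slc1a2 was lowest too. Slc1a3, however, was at its highest TRAP WT level in replicate 3. The part of glial RNA in the TRAP levels of Slc1a3 and Slc1a2 was not tested.

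Slc1a1, the form of many neurons, was low and fell in TRAP. The 4 input WT libraries held 18.2, 20.3, 22.2 and 24.4 CPM, and the 3 TRAP WT libraries 6.08, 4.28 and 3.19 CPM. The 3 input KO libraries held 19.5, 22.6 and 20.0 CPM, and the 4 TRAP KO libraries 5.30, 6.70, 7.04 and 3.19 CPM. As for Slc1a2, input and TRAP did not overlap, and TRAP WT replicate 3 and TRAP KO replicate 4 were lowest. Slc1a1 fell by 2.29 ± 0.26 in WT (log2 scale, SE; edgeR adjusted p = 2.28e-06) and by 1.88 ± 0.23 in KO (SE; edgeR adjusted p = 6.14e-06). Without TRAP WT replicate 3 the drop in WT was −2.10 ± 0.28 (edgeR adjusted p = 1.39e-05). Its mean in TRAP WT was 21.2% of that in input WT, beside 23.4% for the summed granule cell markers and 25.6% for the summed inhibitory interneuron markers. The summed oligodendrocyte and microglia markers were at 24.65% and 24.63%. In KO Slc1a1 was at 26.85%, beside 25.1% (granule), 27.9% (interneuron), 28.6% (oligodendrocyte) and 27.5% (microglia). These values did not set the neuronal panels apart. The part of RNA of any of these cell types in the TRAP level of Slc1a1 was not tested.

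Counts of Slc1a1 are uncertain because of its overlap with 4430402I18Rik, a protein-coding gene on the other strand, and whether strand was used in counting is not given in the sources used here. 4430402I18Rik lay the other way: it was at 2.37 to 3.17 CPM in input WT and at 13.9, 14.01 and 41.8 CPM in TRAP WT. In KO it was at 2.70 to 3.15 CPM in input and at 14.8 to 19.3 CPM in TRAP. The high TRAP WT value came from replicate 3, where Slc1a1 was lowest of its group.

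Slc1a4, a neutral amino acid exchanger, also fell in TRAP. It was at 12.4, 15.9, 17.9 and 17.6 CPM in input WT and at 5.40, 5.34 and 7.92 CPM in TRAP WT. In KO it was at 16.3, 15.04 and 14.04 CPM in input and at 6.04, 7.19, 7.62 and 4.69 CPM in TRAP. The TRAP values were below the input values without overlap, and here TRAP WT replicate 3 was the highest of its group. Slc1a4 fell by 1.34 ± 0.20 in WT (log2 scale, SE; edgeR adjusted p = 3.31e-05), by 1.59 ± 0.22 without TRAP WT replicate 3 (edgeR adjusted p = 2.34e-05), and by 1.26 ± 0.19 in KO (edgeR adjusted p = 3.70e-05).

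Slc1a5, the glutamine exchanger, was close to the lower end of what was measured, with 9 to 72 counts in a library. It was at 0.702, 1.14, 1.02 and 1.15 CPM in input WT and at 0.957, 0.844 and 0.705 CPM in TRAP WT. In KO it was at 0.520, 1.18 and 0.627 CPM in input and at 0.390, 0.562, 0.528 and 0.398 CPM in TRAP. Input and TRAP overlapped in both genotypes. The log2 difference was −0.29 in WT (95% interval −1.01 to 0.44; edgeR adjusted p = 0.449) and −0.73 in KO (95% interval −1.46 to 0.0050; edgeR adjusted p = 0.0662). The KO interval reaches past the value of Slc1a4. Without TRAP WT replicate 3 the WT difference was −0.19 ± 0.40 (SE; edgeR adjusted p = 0.672). Without input KO replicate 1 the KO difference was −0.93 and passed the threshold (edgeR adjusted p = 0.0292). Slc1a7, the family gene that is no member here, had 0 to 9 counts in a library and was not tested.

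In all, 5 of the 6 genes passed edgeR's test of TRAP against input in each genotype, 1 higher and 4 lower. Over all genes tested, 75.5% passed in the WT comparison, 37.0% as higher and 38.5% as lower. For KO the share was 75.9%, made of 36.3% higher and 39.6% lower, so 5 of 6 is near the background. The same 5 genes had TRAP and input libraries that did not overlap, which held for 73.9% of genes with a mean count of at least 10 in WT and 79.0% in KO. The 6 had a median log2 fold change of −1.53 (WT) and −1.46 (KO), beside −0.09 and −0.11 for all genes tested. These values rest on TMM scaling. With library totals the median of all genes went to −0.91 in WT and −0.84 in KO, and 3138 genes were higher and 9800 lower in WT (3133 and 9669 in KO), against 5935 and 6181 (5817 and 6359) with TMM. Relative to that shift the picture of the 6 was the same: with library totals the log2 difference of Slc1a6 was still positive, at 1.66 in WT and 2.02 for KO. The 4 lower genes stayed lower, and Slc1a5 passed as lower, at −1.11 in WT (edgeR adjusted p = 0.00935) and −1.46 in KO (edgeR adjusted p = 0.00152).

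**Figure D2:**
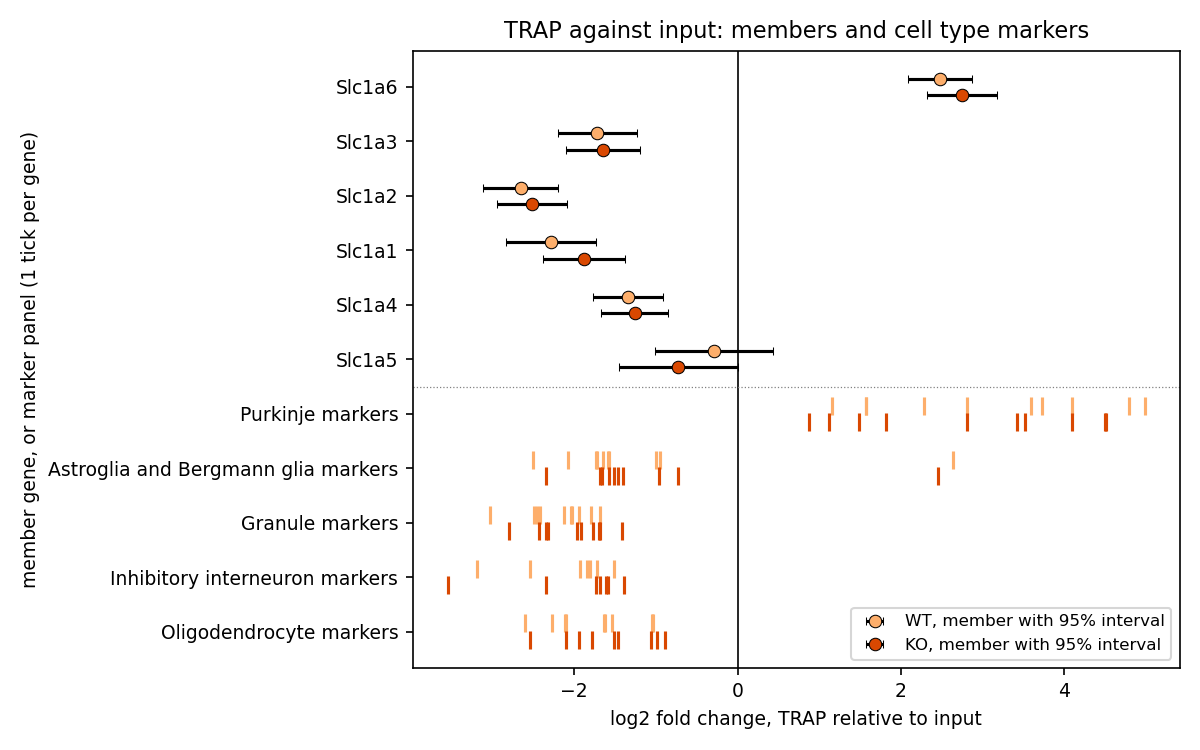
TRAP relative to input, as log2 fold change, for the 6 Slc1 genes (points with 95% intervals, WT and KO) and for single genes of 5 marker panels (1 tick per gene). Slc1a6 lies with the Purkinje markers on the higher side, at 2.48 in WT and 2.75 in KO. Slc1a3, Slc1a2, Slc1a1 and Slc1a4 lie on the lower side with the granule, interneuron and oligodendrocyte markers and the glial markers other than Hopx. Hopx lies on the higher side, at 2.63 in WT and 2.46 in KO, and the WT interval of Slc1a5 spans 0.

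Levels of different genes were compared per length, as CPM per kb of the longest annotated transcript. In input WT the order was Slc1a3 (146 ± 28.7 CPM per kb, SD, n = 4), Slc1a6 (46.0 ± 10.3), Slc1a2 (18.8 ± 2.52), Slc1a1 (5.61 ± 0.698), Slc1a4 (4.06 ± 0.637) and Slc1a5 (0.358 ± 0.0753). In TRAP WT it was Slc1a6 (251 ± 49.1 CPM per kb, SD, n = 3), Slc1a3 (43.5 ± 5.10), Slc1a2 (2.99 ± 0.480), Slc1a4 (1.58 ± 0.375), Slc1a1 (1.19 ± 0.384) and Slc1a5 (0.298 ± 0.0450). The KO groups had the same orders. No neighbours overlapped in input, and in TRAP only Slc1a4 and Slc1a1 did. With the length of all annotated exons in place of the longest transcript, Slc1a4 came before Slc1a1 in input as well (4.06 and 2.58 CPM per kb in WT), while the first 3 places stayed as they were.

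As shares of the family's summed CPM per kb, Slc1a3 made up 66.0% ± 0.99 (SD, n = 4) of input WT and Slc1a6 made up 20.8% ± 0.80. In TRAP WT the 2 changed places, with 83.3% ± 1.54 (SD, n = 3) for Slc1a6 and 14.6% ± 1.09 for Slc1a3. In KO, Slc1a6 held 18.6% ± 1.51 of input (SD, n = 3) and 83.7% ± 3.38 of TRAP (SD, n = 4), and Slc1a3 held 68.5% ± 1.86 and 14.4% ± 2.95. Slc1a2 went from 8.62% of input WT to 1.03% of TRAP WT. Slc1a1, Slc1a4 and Slc1a5 each held at most 2.84% in any library. These shares depend on the length used. With the length of all annotated exons, Slc1a3 held 53.1% and Slc1a6 30.3% of input WT, and 8.64% and 89.4% of TRAP WT. In KO, Slc1a3 then held 55.9% of input and 8.49% of TRAP.

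**Figure D3:**
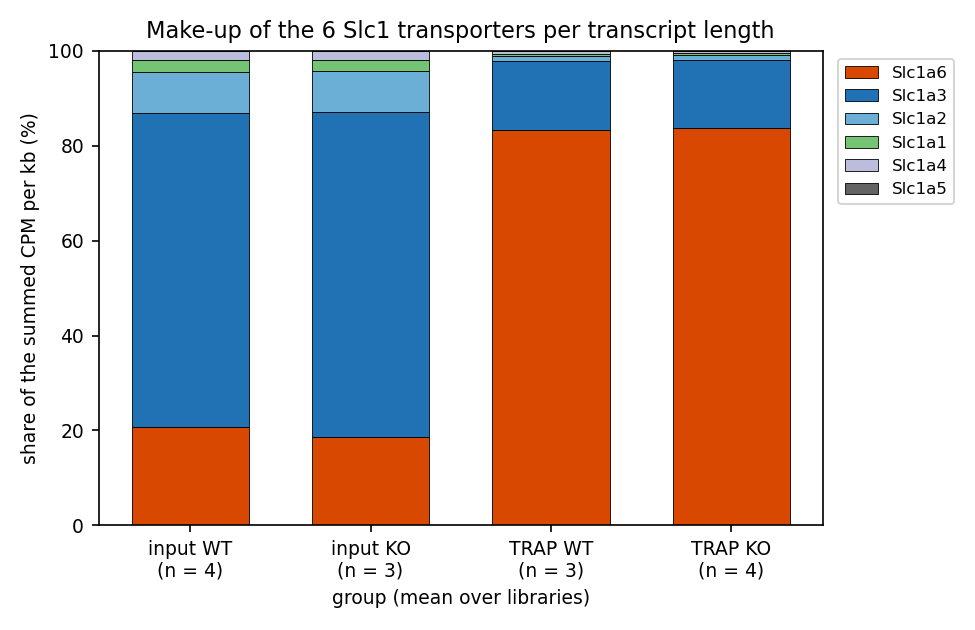
Make-up of the summed CPM per kb of the 6 Slc1 genes in each group, in percent, with the length of the longest transcript, as means over libraries with 1 colour per gene. Slc1a3 fills most of the input bars (66.0% in WT, 68.5% in KO) and Slc1a6 most of the TRAP bars (83.3% in WT, 83.7% in KO).

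Ratios between 2 genes inside a library do not depend on how libraries are scaled, and 3 of them were compared, as raw counts not divided by length. Slc1a6 counts were 0.146, 0.136, 0.143 and 0.152 of Slc1a3 counts in input WT and 2.56, 2.41 and 2.90 in TRAP WT. In KO the ratio was 0.129, 0.135 and 0.110 in input and 2.46, 2.28, 2.40 and 4.07 in TRAP. The Purkinje form thus stood below the Bergmann glial form in all 7 input libraries and above it in all 7 TRAP libraries, with TRAP KO replicate 4 the highest. The log2 ratio differed by 4.18 in WT and 4.45 in KO between TRAP and input. For Slc1a6 to Slc1a1, the 2 neuronal forms, it differed by 4.73 in each genotype. For Slc1a3 to Slc1a2, the 2 glial forms, it differed by 0.93 in WT and 0.88 in KO, since Slc1a2 fell more. Each of these 6 differences had an exact two-sided permutation p of 0.0286 (adjusted 0.0286), the smallest that 35 splits of 7 libraries can give. All TRAP libraries were on one side of all input libraries each time. For the ratios with Slc1a6 this was fixed by the levels given above. Slc1a6 was higher, and Slc1a3 and Slc1a1 lower, in every TRAP library than in every input library of the genotype. Those p-values therefore add no support to the levels. How many other gene pairs reach the same p was not tested.

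No Slc1 gene passed the test of KO against WT, in TRAP or in input. Over all genes, 0.00707% of 14145 passed in TRAP and 0.0188% of 15997 in input by edgeR, with 212 and 2198 genes at an unadjusted p under 0.05. The input count of 3 genes rests on the method and on single libraries: it was 292 by DESeq2 and 158 by edgeR without input KO replicate 2, with no Slc1 gene among them. In TRAP the log2 difference of KO to WT was 0.23 for Slc1a6 (95% interval −0.25 to 0.71), 0.19 for Slc1a3 (−0.39 to 0.77) and 0.15 for Slc1a2 (−0.40 to 0.71). It was 0.26 for Slc1a1 (95% interval −0.45 to 0.98) and 0.05 for Slc1a4 (−0.55 to 0.66). These 5 genes had overlapping KO and WT libraries, and their edgeR adjusted p was 0.9998. Without TRAP WT replicate 3 none passed either, with log2 differences from 0.05 for Slc1a2 to 0.33 for Slc1a6. Without TRAP KO replicate 3 the differences of Slc1a1 (−0.11), Slc1a2 (−0.12), Slc1a3 (−0.11) and Slc1a4 (−0.10) turned negative.

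Slc1a5 was the 1 gene of the 6 whose KO libraries all lay below all WT libraries in TRAP, which 2.71% of genes with a mean count of at least 10 also showed in that direction. The log2 difference was −0.84 (95% interval −1.69 to 0.014), with an unadjusted p of 0.0532 and an edgeR adjusted p of 1.0 over all genes. It was −0.93 without TRAP WT replicate 3, and it rests on 9 to 17 counts per library.

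In input, the intervals were narrower than in TRAP, except that of Slc1a5. The log2 difference of KO to WT was 0.22 for Slc1a3 (95% interval −0.05 to 0.50; unadjusted p = 0.0999, edgeR adjusted p = 0.454) and −0.06 for Slc1a6 (−0.44 to 0.33). It was 0.11 for Slc1a2 (95% interval −0.14 to 0.36), −0.01 for Slc1a1 (−0.28 to 0.26), −0.02 for Slc1a4 (−0.35 to 0.31) and −0.34 for Slc1a5 (−1.20 to 0.52). KO and WT libraries overlapped for all 6. Without input KO replicate 3 the differences of Slc1a6 (0.30), Slc1a1 (0.23), Slc1a4 (0.36) and Slc1a5 (0.31) turned positive. That replicate was the only male of its group. Without it the fit with sex compares the female KO libraries with the only female WT library, input WT replicate 1. These values therefore rest on that library. Within input WT, replicate 1, the only female of that group, had the lowest level of each of the 6 genes. Sex was a term of the fit, and its part in these levels was not tested. The ratio of Slc1a6 to Slc1a3 was lower in every KO input than in every WT input, by 0.21 on the log2 scale. Its exact permutation p was 0.0286 (n = 3 and 4, two-sided) and its adjusted p over 6 ratios was 0.171, so it did not pass. The other 5 ratios had an adjusted p of 1.0.

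No Slc1 gene passed the interaction test, which asks whether the difference between TRAP and input differs between genotypes. The interaction was −0.44 for Slc1a5 (95% interval −1.47 to 0.60), 0.40 for Slc1a1 (−0.33 to 1.14) and 0.27 for Slc1a6 (−0.29 to 0.83). The order of these values rests on single libraries. Without TRAP WT replicate 3 the interaction was −0.55 for Slc1a5, 0.39 for Slc1a6, 0.31 for Slc1a4, 0.20 for Slc1a1, 0.12 for Slc1a3 and 0.0033 for Slc1a2, and the lowest edgeR adjusted p of the 6 was 0.941. Over all fits with 1 library left out it ran from −0.66 to −0.02 for Slc1a5 and from 0.20 to 0.62 for Slc1a1. Over all 16042 genes 0% passed the interaction by edgeR, with 430 at an unadjusted p under 0.05 and 1 gene by DESeq2. The interval of Slc1a3 was −0.58 to 0.72, so a difference between genotypes of up to that size is not shown to be absent.

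**Figure D4:**
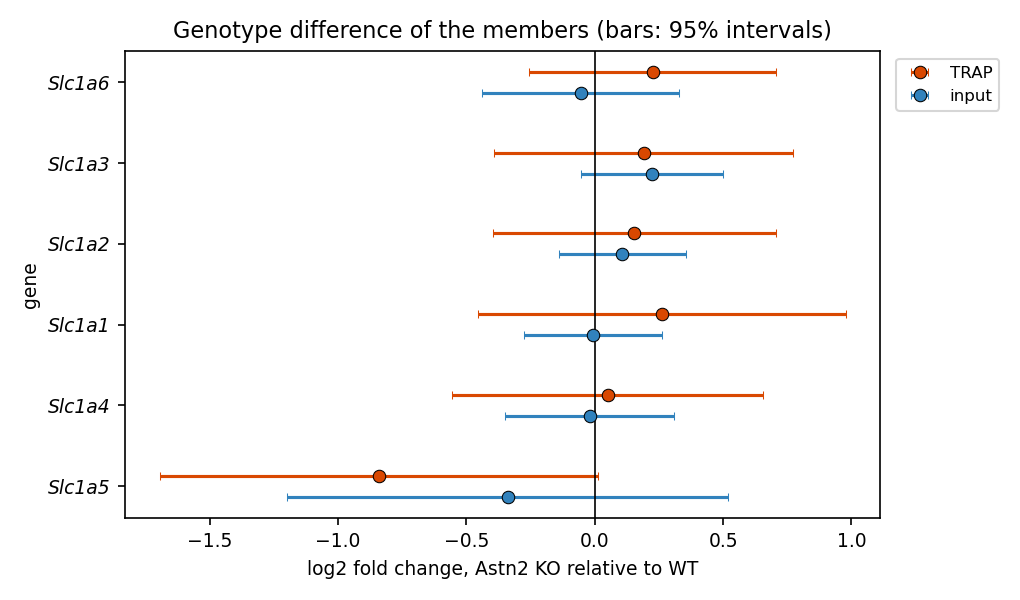
Log2 fold change of Astn2 KO relative to WT for the 6 Slc1 genes in TRAP and in input, with 95% intervals from edgeR. All 12 intervals include 0, and those of Slc1a5 are the widest and lie mostly on the lower side (−0.84 in TRAP, −0.34 in input).

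The genes with the most similar pattern over the 14 libraries were found by Pearson's r of log2(CPM + 1) among 5943 genes with a mean of at least 5 on that scale. The 14 points share the contrast of TRAP with input, so r is high for many genes and is given as a description. Closest to Slc1a6 were Nell2 (r = 0.994; 203 CPM in input WT and 554 CPM in TRAP WT), Ndufa9 (r = 0.992) and Cds1 (r = 0.991). Closest to Slc1a3 were Ednrb (r = 0.992), Tns3 (r = 0.990) and Eps8 (r = 0.989). Closest to Slc1a2 were Hepacam (r = 0.997; 95.9 CPM in input WT and 21.01 CPM in TRAP WT), Dtna (r = 0.996) and Tril (r = 0.996). The neighbours of Slc1a6 were higher in TRAP than in input, and those of Slc1a3 and Slc1a2 were lower, as their group means show.

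Closest to Slc1a1 were Sv2b (r = 0.995), a synaptic vesicle protein gene, Plpp3 (r = 0.994) and Igfbp5 (r = 0.994). Slc1a4 was closest to Neo1 (r = 0.986), Actn4 (r = 0.985) and Sdc3 (r = 0.982). Slc1a5 had no close match, with r of 0.811 for Tmem47, 0.776 for Enpp2 and 0.759 for Mmgt1. Within the 7 TRAP libraries alone, r was 0.943 for Slc1a1 with Slc1a2, and 0.736 and 0.768 for these 2 with Slc1a3. For Slc1a6 it was 0.595 with Slc1a3, 0.113 with Slc1a1, 0.0522 with Slc1a2 and 0.463 with Slc1a4. Within the 7 input libraries r was 0.473 for Slc1a1 with Slc1a2, and 0.676 and 0.871 for these 2 with Slc1a3. For Slc1a6 it was 0.782 with Slc1a3, 0.877 with Slc1a1, 0.693 with Slc1a2 and 0.865 with Slc1a4 in input. Libraries of a fraction share a scaling step, and in TRAP the marker sums of other cells vary between them as given above.

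Genes that work with these transporters were read from 7 lists holding 42 genes. In WT 15 rose and 24 fell in TRAP by edgeR, and in KO 13 rose and 23 fell, with a median log2 fold change of −0.61 (WT) and −0.66 (KO). Over all genes 37.0% rose and 38.5% fell in WT, and 36.3% rose and 39.6% fell in KO. In the main fits none passed the test of KO against WT in TRAP (40 tested) or in input (42 tested). With library totals calls that turned included those of Glud1 and Arl6ip5 as higher in WT and of Srr as higher in KO, which went to negative values.

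Of the 3 vesicular glutamate transporters, which fill synaptic vesicles, 2 fell in TRAP in each genotype, beside 38.5% of all genes in WT and 39.6% in KO. In WT these were Slc17a7, the form of granule cells, by 1.84 ± 0.23 (log2 scale, SE; edgeR adjusted p = 5.50e-06; 739 CPM in input and 208 CPM in TRAP) and Slc17a6 by 1.64 ± 0.22 (edgeR adjusted p = 1.30e-05). Slc17a8 did not pass, at −0.27 in WT (edgeR adjusted p = 0.686) and −0.94 in KO (edgeR adjusted p = 0.151). The cystine-glutamate exchanger, which releases glutamate in exchange for cystine, fell in both of its subunits. Slc7a11 fell by 1.54 ± 0.12 (SE; edgeR adjusted p = 5.52e-08) and Slc3a2 by 0.84 ± 0.14 (SE; edgeR adjusted p = 8.41e-05) in WT.

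Among 10 genes of glutamate and glutamine metabolism, 3 rose and 7 fell in WT, and 2 rose and 7 fell in KO. Over all genes 75.5% passed in WT and 75.9% in KO. Got1 and Got2, the cytosolic and mitochondrial aspartate aminotransferases that interconvert glutamate and aspartate, rose by 1.49 ± 0.12 (log2 scale, SE; edgeR adjusted p = 6.47e-08) and 1.15 ± 0.14 (edgeR adjusted p = 4.42e-06). Got1 went from 195.5 CPM in input WT to 543 CPM in TRAP WT. The glutamine transporter genes fell: Slc38a3 by 2.48 ± 0.28 (SE; edgeR adjusted p = 2.70e-06) and Slc38a5, at under 1 CPM, by 1.18 ± 0.43 (SE; edgeR adjusted p = 0.0218). Glul, the glutamine synthetase of astroglia, was also lower, at −1.07 ± 0.25 (SE; edgeR adjusted p = 0.00158).

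Of 8 genes for proteins that bind, traffic or regulate these transporters, 3 rose and 4 fell in WT, and 2 rose and 4 fell in KO, beside 75.5% and 75.9% of all genes called. Ajuba, a LIM protein that binds GLT-1, fell by 2.50 ± 0.39 (log2 scale, SE; edgeR adjusted p = 5.29e-05) at levels under 2.1 CPM. Slc9a3r1, a PDZ scaffold, fell by 1.77 ± 0.23 and Nedd4l, a ubiquitin ligase, fell by 2.16 ± 0.19. All 3 fell in KO as well.

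Uptake by these transporters runs on the sodium and potassium gradients. Of 8 genes for the pump, the glial potassium channel and the glial gap junctions, 2 rose and 6 fell in WT, and 2 rose and 5 fell in KO, beside 38.5% and 39.6% of all genes that fell. With library totals 1 rose and 6 fell in each genotype. Kcnj10, the Kir4.1 channel, fell by 2.40 ± 0.21 (log2 scale, SE; edgeR adjusted p = 1.68e-07), Gja1 by 2.18 ± 0.27, Gjb6 by 2.04 ± 0.26 and Atp1b2, the glial pump subunit, by 1.97 ± 0.20. Their 4 drops lay between those of Slc1a3 and Slc1a2.

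Serine synthesis and exchange is the pathway whose product Slc1a4 and Slc1a5 carry. Of its 6 genes, 3 were higher and 3 lower in both genotypes (2 higher and 3 lower with library totals). Over all genes 37.0% were higher and 38.5% lower in WT, and 36.3% and 39.6% in KO, so a near-even split is also the background. Shmt1, which interconverts serine and glycine, rose by 3.21 ± 0.13 in WT (log2 scale, SE; edgeR adjusted p = 1.99e-10), from 3.07 to 28.8 CPM. Psph, the last enzyme of serine synthesis, rose by 1.97 ± 0.13 (SE; edgeR adjusted p = 1.03e-08), while Phgdh, the first, fell by 1.28 ± 0.31 (SE; edgeR adjusted p = 0.00205). Slc7a10, an exchanger of small neutral amino acids, fell by 2.07 ± 0.33 (SE; edgeR adjusted p = 6.98e-05).

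Slc1a6 protein is known to follow the zebrin stripes of Purkinje cells, which dissected whole cerebella cannot resolve. Of 5 genes listed for striped levels in Purkinje cells, 4 rose in TRAP in both genotypes, beside 37.0% of all genes in WT and 36.3% in KO. The list was not split by which stripes each gene marks, so its genes need not share those of Slc1a6. Plcb4 did not pass, at 0.81 in WT (edgeR adjusted p = 0.0596) and 0.25 in KO (edgeR adjusted p = 0.563). In WT the rise was 2.77 ± 0.16 for Aldoc, zebrin II itself (log2 scale, SE), 2.68 ± 0.13 for Plcb3, 2.09 ± 0.18 for Ebf2 and 1.53 ± 0.21 for Kctd12, beside 2.48 ± 0.18 for Slc1a6. In input the 5 log2 differences of KO to WT ran from 0.24 to 0.39. Of the 5, 4 had an unadjusted edgeR p under 0.05, as did 4 of 10 Purkinje markers and 2198 of 15997 genes. With 1 library left out, up to 1 of the 5 passed the adjusted threshold. In TRAP the differences ran from −0.15 to 0.31, with 0 at such an unadjusted p.

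**Figure D5:**
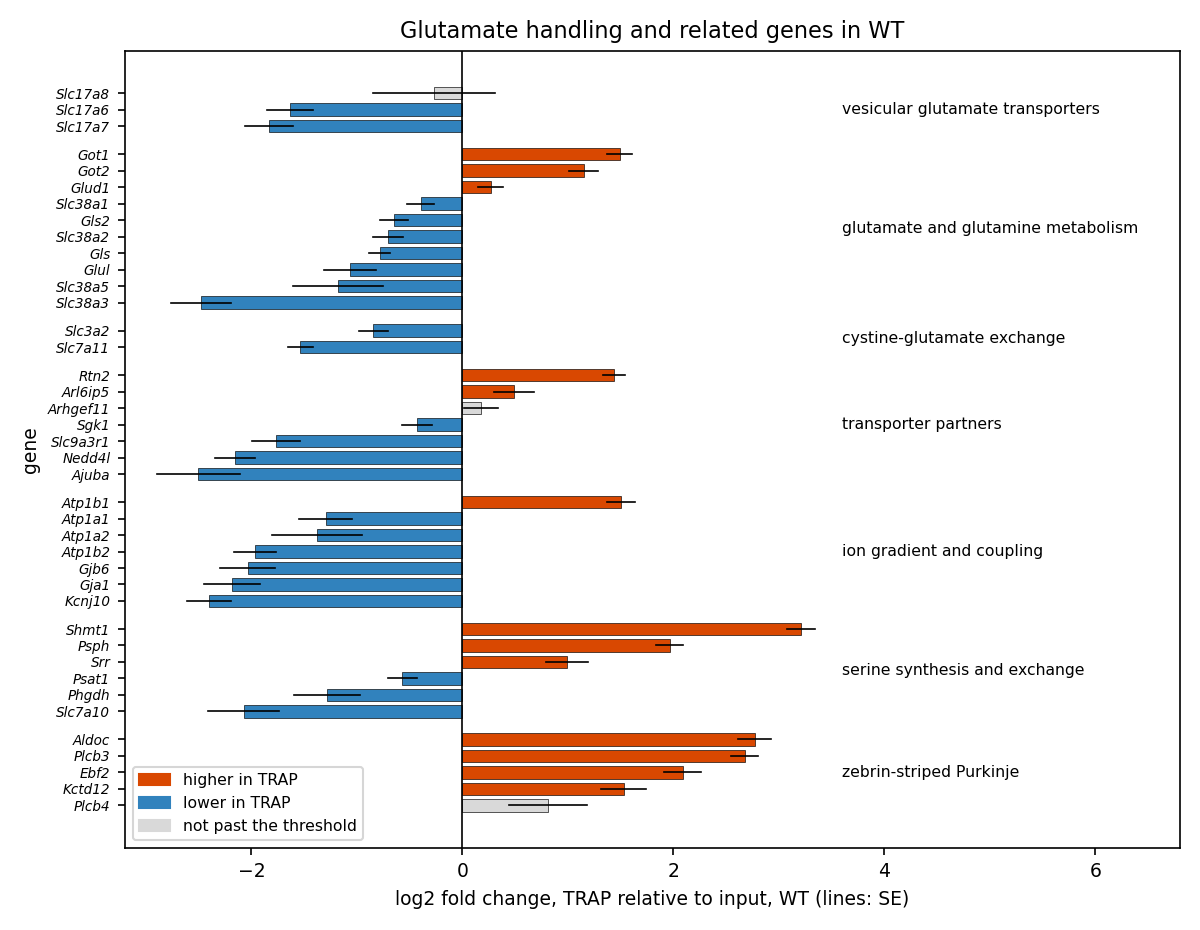
Log2 fold change of TRAP relative to input in WT for 40 of the 42 genes of the 7 lists, as bars from 0 with lines for the SE, coloured by edgeR's call at an adjusted p under 0.05. Of those drawn, 13 genes are higher, led by Shmt1 at 3.21, and 24 are lower, led by Ajuba at −2.50.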

How the data were processed

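The deposited values are counts per gene, 1 column for each of 14 libraries, with Entrez numbers as row names; they are whole numbers and no normalization had been applied. The submitters' processing notes name Salmon 0.8.2 and the build mm10; what each was used for, and the strand setting, are not given in the sources used here. Symbols came from the RefSeq table of GRCm38.p6 (24045 of 24100 genes matched), and positions and lengths from GENCODE M21.

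Groups and sex were taken from the labels. Nothing in the labels says which libraries share an animal, so p-values measure the spread between these libraries. No pair of libraries agreed within sampling noise. A level of 3 counts is 0.0438 to 0.205 CPM, which covers counting error only.

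One fit of 14 libraries, with a mean per group and a term for sex, gave TRAP against input and the interaction. Genotype was fitted on the 7 libraries of a fraction, also with sex. The test was edgeR's quasi-likelihood test (edgeR 4.0.16, R 4.3.3), two-sided, with TMM, filterByExpr and Benjamini-Hochberg adjustment over all genes tested, at 0.05; intervals are 95%. The edgeR script was tested on simulated data in which few genes changed. That does not test the scaling where most genes differ, as between TRAP and input. Log2 ratios of 2 genes used counts plus 0.5 and an exact permutation test over 35 splits. Alternatives included DESeq2 1.42.0 and limma 3.58.1 with quality weights.

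Genes named are the 6 members, up to 4 genes per list with the largest TRAP difference in WT among those past the threshold, up to 2 per marker panel, and the 3 most similar genes per member. Glul, Glud1, Arl6ip5, Srr and Plcb4, and the overlapping genes, were named after their values were seen. Some list genes are counted but neither named nor drawn here. The members and lists were chosen with earlier results of these data known.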

Additional observations from a re-analysis of the deposited data

Results flagged for a closer look

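In the 4 TRAP KO libraries the log2 ratio of Slc1a6 to Slc1a3 counts was 2.03 in replicate 4, and 1.296, 1.19 and 1.26 in replicates 1, 2 and 3. The gap from replicate 4 to the nearest other library was 0.871 of the group's range, above Dixon's 95% critical value for 4 values. Replicate 4 also had the lowest Slc1a3 level of the group, at 151 CPM, and the lowest summed level of the astroglia and Bergmann glia markers without Hopx, at 210.5 CPM. Its Slc1a6 level of 614 CPM lay inside the range of the others. In all, 18 groups of values were examined and 1 stood out, and chance alone picks about 1 in 20.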

How the results depend on the processing

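Slc1a6 stayed higher, and Slc1a1, Slc1a2, Slc1a3 and Slc1a4 stayed lower in TRAP than in input, past the threshold under all 23 alternatives in each genotype. For Slc1a6 the log2 difference lay between 1.66 and 2.61 (WT) and between 2.02 and 2.85 (KO). Slc1a5 turned to 0.0166 in WT with quality weights (limma), where the cause was not tested, and passed as lower with library totals in both genotypes.

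The ratios between members in TRAP against input kept their direction everywhere. With medians over libraries they were 4.15 (WT) and 4.24 (KO) for Slc1a6 to Slc1a3, 4.45 and 4.53 for Slc1a6 to Slc1a1, and 0.85 and 0.90 for Slc1a3 to Slc1a2, none past the threshold. Leaving out 1 library in turn leaves too few splits to pass it: the ranges were 4.11 to 4.24 (WT) and 4.26 to 4.54 (KO) for the first, 4.37 to 4.93 and 4.46 to 4.87 for the second, and 0.73 to 1.10 and 0.84 to 0.95 for the third. KO against WT in TRAP turned to −0.0748 for Slc1a6 to Slc1a3 and 0.0872 for Slc1a3 to Slc1a2 with medians. Leaving out 1 library, these ran from −0.14 to 0.14 and from −0.17 to 0.19, and Slc1a6 to Slc1a1 ran from −0.36 to 0.27. In input Slc1a3 to Slc1a2 ran from −0.0291 to 0.101.

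No member passed a genotype test or the interaction under any alternative, and small differences changed sign. In input, Slc1a1 was 0.000974 with DESeq2 size factors, 0.00123 with no filter and 0.00180 by the DESeq2 Wald test. Leaving out 1 library in turn, KO against WT in input ran from −0.19 to 0.23 for Slc1a1, −0.31 to 0.36 for Slc1a4, −0.84 to 0.31 for Slc1a5 and −0.35 to 0.30 for Slc1a6. The upper ends came without input KO replicate 3, where the comparison rests on input WT replicate 1. In TRAP it ran from −0.11 to 0.47 for Slc1a1, −0.12 to 0.34 for Slc1a2, −0.11 to 0.37 for Slc1a3 and −0.10 to 0.25 for Slc1a4. The interaction ran from −0.0855 to 0.217 for Slc1a3 and −0.0506 to 0.315 for Slc1a4.

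Over all genes, the interaction called 1 gene by DESeq2. In TRAP, KO against WT called 3 by DESeq2, 4 with quality weights, 2 with all 14 libraries in one fit, and 1 to 2 with 1 library left out. In input it called 5 with DESeq2 size factors, 23 with no filter, 292 by DESeq2, 15 at a threshold of 0.1, 8 with quality weights, and 1 to 158 with 1 library left out (158 without input KO replicate 2). The cause was not tested.

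The labels do not say that replicate numbers pair the samples, and not every same-numbered pair passed a correlation of 0.1, so no pairing was used. Deviations of same-numbered libraries correlated at 0.0981 to 0.292 between input and TRAP in WT, −0.125 to 0.225 in KO, −0.196 to −0.046 between genotypes in TRAP and −0.0312 to 0.143 in input. TRAP WT replicates 1 (0.292) and 2 (0.243) correlated best with the input of their own number. So did TRAP KO replicates 1 and 2 (0.225 each). TRAP WT replicate 3 correlated best with input WT replicate 4 (0.181), and TRAP KO replicate 3 with input KO replicate 2 (0.167). TRAP KO replicate 4 has no input of its number and correlated best with input KO replicate 3 (0.346). Which libraries share an animal is not known, and the main fit took all libraries as independent. With a replicate block in place of sex, 5586 genes were higher and 6007 lower in TRAP in WT, and 5550 and 5892 in KO. KO against WT in input turned to 0.0286 for Slc1a1 and 0.000599 for Slc1a6 with the block.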
